A study of Mus musculus with 6 samples.

Results

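Macrophages engulf dying cells in the thymus, and the genes described here are a standard signature of that cell type. The set held 10 genes, namely C1qa, C1qb and C1qc, which encode the chains of complement C1q, and Mpeg1, Ctss, Csf1r, Cd68, Lyz2, Adgre1 and Aif1. They were chosen by name, as every probe set whose platform gene symbol was exactly 1 of these symbols, which gave 14 of the 45101 probe sets on the array (10 of 18193 named genes). All 14 passed the filter on dim probe sets and were tested, that of Aif1 only because of its Notch1f/f values.

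The signals came from thymic lymphomas of 6 mice, 1 array per tumour. All 6 mice were IkL/L, homozygous for a hypomorphic allele of the Ikaros gene, and CD4-Cre+, so that Cre recombinase was made under Cd4 control, which is on during T cell development in the thymus. The Notch1f/f group was 3 mice of 8 to 10 weeks, in which Cre could delete the promoter and exon 1 of Notch1. The other 3 mice, aged 18 to 20 weeks, were Notch1+/+. Age and genotype changed together and cannot be told apart. The labels describe transformed T cells from dissected tumours broken up mechanically, and they record no sorting step. The 12 measured T cell markers were bright, with intensities that summed to 22659 to 28064 per Notch1f/f tumour and 18375 to 21904 per Notch1+/+ tumour. The array's 18S ribosomal RNA controls differed too: the 3' one read 249.5 to 318.9 in Notch1f/f and 64.8 to 125.1 in Notch1+/+ tumours. The part of this in the differences given here was not tested.

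C1q starts the classical complement pathway and also coats apoptotic cells, which helps phagocytes take them up. Unlike most complement proteins it is made largely by macrophages and dendritic cells rather than by the liver. Csf1r is the receptor through which CSF1 and IL-34 keep macrophages alive, and PU.1 (Spi1), an ETS transcription factor, drives many genes of the myeloid lineage. In bulk tumour RNA, fewer cells of a type and less RNA per cell cannot be told apart.

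Most of the 10 genes had higher intensities in the Notch1f/f tumours, with log2 differences that reached 1.90. In 8 of the 10 genes every Notch1f/f tumour lay above every Notch1+/+ tumour, and Cd68 and Adgre1 were the exceptions. Of the 14 probe sets, 12 had groups without overlap on the higher side, against 8.13% of all 27022 tested probe sets, and none had groups without overlap on the lower side, where the share of all probe sets was 10.4% (18.6% in both directions together). None of the 14 passed an adjusted p of 0.05 in limma (lowest adjusted p = 0.149), a threshold passed by 0.0185% of all probe sets (0.0074% higher and 0.0111% lower). An unadjusted p under 0.05 on the higher side was found for 11 of the 14 and for 5.94% of all probe sets (13.5% in both directions together). Aif1, tested only because of its Notch1f/f values, is in the counts of 8, 12 and 11 and is no support for them. A filter at the 60th percentile, which Aif1 did not pass, kept 13 of the probe sets. Of these, 11 had groups without overlap on the higher side (9.15% of all probe sets) and 10 an unadjusted p under 0.05. The median log2 difference was 1.32 over the 14 probe sets and -0.04 over all tested probe sets. The exact two-sided permutation test cannot go below 0.1 with 3 tumours against 3.

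**Figure D1:**
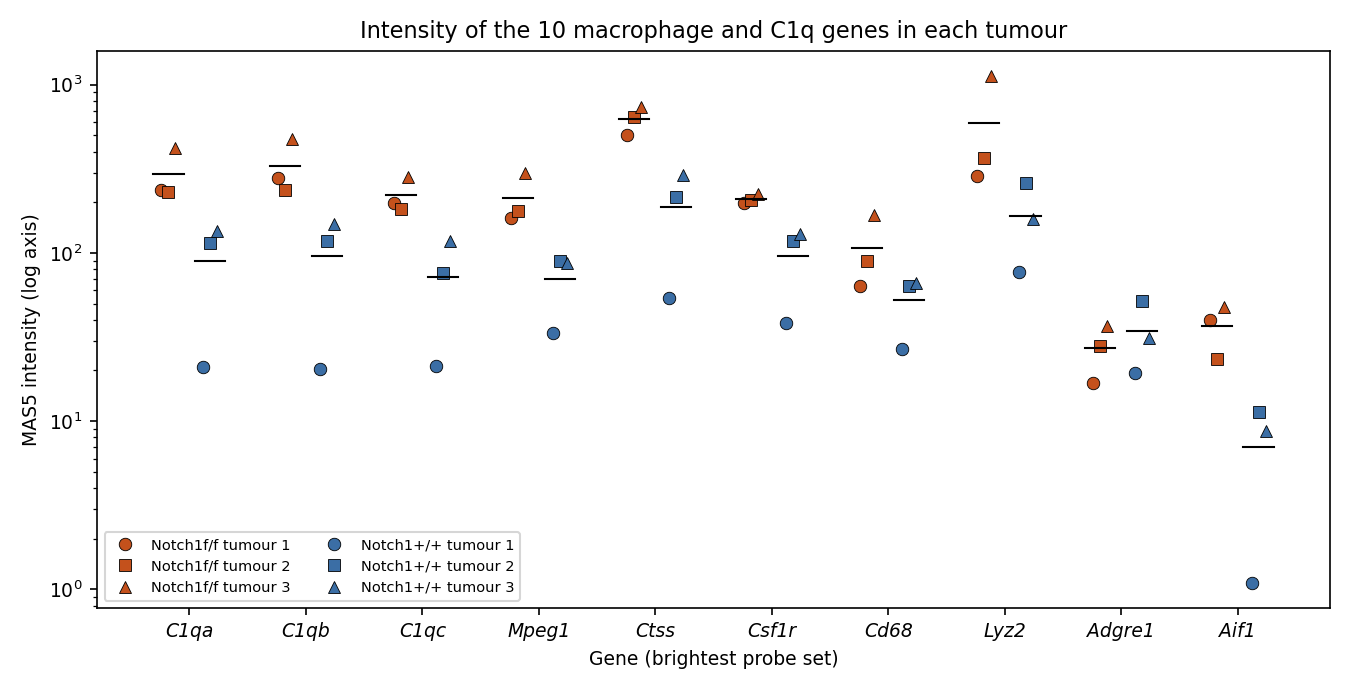
Intensity (MAS5, log axis) of the brightest probe set of each of the 10 genes in the 3 Notch1f/f tumours (orange, left of each gene) and the 3 Notch1+/+ tumours (blue, right), with a bar at each group mean. The groups are apart for 8 genes and overlap for Cd68 and Adgre1, and Notch1+/+ tumour 1 lies lowest for 9 genes.

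The chains of C1q are encoded side by side on chromosome 4, in the order C1qb, C1qc and C1qa with no other protein-coding gene between them. C1qa, the A chain, had intensities of 235.6, 228.8 and 420.2 in Notch1f/f tumours 1, 2 and 3, against 21.1, 114.3 and 134.7 in Notch1+/+ tumours 1, 2 and 3. The groups did not overlap, and the Notch1+/+ tumours spread 6.38-fold among themselves. The log2 difference was 1.74 ± 0.50 (SE, limma adjusted p = 0.277), or 3.33-fold. All such values are on a log2(intensity + 16) scale, on which folds of dim genes come out too small.

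C1qb, the B chain, was read by 3 probe sets. The brightest had 278.7, 235.0 and 472.7 in the Notch1f/f tumours, against 20.4, 117.8 and 148.6 in the Notch1+/+ tumours. This gave a log2 difference of 1.83 ± 0.53 (limma adjusted p = 0.275). The second had 281.6, 247.6 and 343.8 against 40.5, 91.4 and 111.1, and its narrower spread gave the lowest adjusted p of all 14 probe sets, 0.149 in limma, at a log2 difference of 1.73 ± 0.32. The last had 182.4, 159.3 and 216.6 against 51.1, 102.6 and 128.8, with a smaller log2 difference of 0.94 ± 0.31 (limma adjusted p = 0.295), or 0.61 without Notch1+/+ tumour 1. The second and the last are of a type (_x_at) whose probes can also bind other transcripts. In all 3 probe sets the groups stayed apart.

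C1qc, the C chain, had 197.8, 182.7 and 282.2 in the Notch1f/f tumours, against 21.3, 76.1 and 116.8 in the Notch1+/+ tumours. Its groups did not overlap either, and the log2 difference was 1.60 ± 0.43 (limma adjusted p = 0.257). The chains varied together from tumour to tumour. After each gene was centred on its own mean over the 6 tumours, C1qa and C1qb differed by a root mean square of 0.09 on the log2 scale, the smallest of the 45 pairs among the 10 genes. C1qa and C1qc differed by 0.19 and C1qb and C1qc by 0.23. Ctss lay about as near to the C1q chains, at 0.21 from C1qa.

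Promoter sequence is shown for the genes whose groups were apart and whose window held the motif searched. RefSeq windows (GRCm38.p6) ran from 250 bases before to 50 bases after the start site. Of the 10 genes, C1qa and Adgre1 had no window in the sequences used, and Csf1r was left out of the search. The windows of the other 7 genes were searched for GAGGAA on both strands (TTCCTC on the printed strand), the core of a PU.1 site. It was found in 5 of the 7 windows and in 28.3% of the 32851 windows of all genes. A match is a string of letters and no measured binding. The 250 bases before the start site follow, 5′ to 3′ on the gene's own strand, with matches in capitals.
C1qb, chr4:136886201-136886450 (minus strand): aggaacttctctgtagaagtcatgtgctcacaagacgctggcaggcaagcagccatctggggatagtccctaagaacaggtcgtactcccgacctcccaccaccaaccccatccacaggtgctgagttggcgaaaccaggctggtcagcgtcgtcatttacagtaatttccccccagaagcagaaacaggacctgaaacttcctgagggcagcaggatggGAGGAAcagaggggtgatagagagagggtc
C1qc, chr4:136892915-136893164 (minus strand): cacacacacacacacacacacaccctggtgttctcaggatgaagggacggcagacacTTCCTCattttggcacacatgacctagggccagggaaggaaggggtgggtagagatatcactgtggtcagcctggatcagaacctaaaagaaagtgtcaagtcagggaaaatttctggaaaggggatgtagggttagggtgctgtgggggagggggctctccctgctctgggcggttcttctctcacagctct
Ctss, chr3:95526536-95526785 (plus strand): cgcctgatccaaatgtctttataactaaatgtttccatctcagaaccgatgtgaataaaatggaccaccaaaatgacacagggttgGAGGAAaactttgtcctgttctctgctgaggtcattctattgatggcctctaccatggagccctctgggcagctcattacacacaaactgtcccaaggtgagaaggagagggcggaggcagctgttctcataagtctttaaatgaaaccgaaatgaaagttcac
Aif1, chr17:35176053-35176302 (minus strand): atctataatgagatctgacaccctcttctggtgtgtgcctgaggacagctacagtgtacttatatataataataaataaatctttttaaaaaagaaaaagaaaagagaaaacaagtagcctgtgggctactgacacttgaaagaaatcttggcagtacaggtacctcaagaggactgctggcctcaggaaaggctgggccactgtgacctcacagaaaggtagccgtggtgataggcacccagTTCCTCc
With the start site as position 0, the match of C1qb began at position -30, as GAGGAA. That of C1qc began at -193 and that of Aif1 at -7, each as TTCCTC. Ctss held GAGGAA at -164 and TTCCTC at 0, past the printed stretch. Cd68, whose groups overlapped, held 2 matches, and the windows of Mpeg1 and Lyz2 held none.

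Among the surface receptors, Csf1r was higher in the Notch1f/f tumours, where its values were the closest together of the 10 genes. Its brightest probe set had 198.5, 205.5 and 223.4 in the Notch1f/f tumours, against 38.3, 118.3 and 129.8 in the Notch1+/+ tumours. The Notch1f/f tumours differed by at most 1.13-fold from each other and the Notch1+/+ tumours by 3.39-fold. The log2 difference was 1.14 ± 0.37 (limma adjusted p = 0.294). The other 2 Csf1r probe sets had groups without overlap as well, with log2 differences of 0.92 ± 0.30 and 0.55 ± 0.25 (limma adjusted p = 0.291 and 0.377). The last of these was dim, at 56.4 to 69.1 in the Notch1f/f tumours and 28.3 to 51.2 in the Notch1+/+ tumours.

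Adgre1, which encodes the F4/80 antigen used to identify mouse macrophages, did not follow the others. It had 16.9, 27.9 and 36.6 in the Notch1f/f tumours, against 19.2, 51.9 and 31.2 in the Notch1+/+ tumours. The groups overlapped, and the log2 difference was -0.19 ± 0.30 with a 95% confidence interval of -0.87 to 0.49 (limma adjusted p = 0.807). Its signal was low on all 6 arrays, from a probe set type (_a_at) that reads several transcripts of 1 gene. Without Notch1+/+ tumour 2 the difference was 0.06.

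Cd68, a heavily glycosylated protein of late endosomes and lysosomes, had 63.4, 89.9 and 167.5 in the Notch1f/f tumours, against 26.9, 63.4 and 66.2 in the Notch1+/+ tumours. Notch1f/f tumour 1 lay within the range of the Notch1+/+ tumours, so the groups overlapped. The log2 difference was 0.82 ± 0.38 (limma adjusted p = 0.381), and it was 0.49 without Notch1f/f tumour 3 and 0.52 without Notch1+/+ tumour 1.

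Ctss, the lysosomal protease cathepsin S that trims the invariant chain in antigen-presenting cells, had 502.8, 643.4 and 733.1 in the Notch1f/f tumours, against 54.1, 215.9 and 289.5 in the Notch1+/+ tumours. The lowest Notch1f/f value was well above the highest Notch1+/+ value, and the log2 difference was 1.90 ± 0.48 (limma adjusted p = 0.238). Mpeg1, which encodes the pore-forming protein perforin-2 of phagocytes, had 161.2, 176.7 and 299.0 in the Notch1f/f tumours, against 33.6, 89.4 and 87.1 in the Notch1+/+ tumours. Its groups were apart, and the log2 difference was 1.44 ± 0.36 (limma adjusted p = 0.234).

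Lyz2, the lysozyme of macrophages and neutrophils, had 284.5, 364.9 and 1122.5 in the Notch1f/f tumours, against 77.0, 261.3 and 159.4 in the Notch1+/+ tumours. Notch1f/f tumour 3 stood far above the rest, while Notch1f/f tumour 1 was only just above Notch1+/+ tumour 2. The log2 difference was 1.62 ± 0.53 (limma adjusted p = 0.295), and it was 1.03 without Notch1f/f tumour 3. Lyz2 lies beside a closely related lysozyme gene, Lyz1, so their signals may mix. A pair of Lyz1 probe sets of the type that can bind other transcripts had log2 differences of 1.87 and 1.22 (limma adjusted p = 0.29 and 0.447). The groups of the first were apart. Those of the second overlapped, at 194.9, 153.5 and 934.8 against 45.8, 209.3 and 176.7. The remaining Lyz1 probe set did not exceed 9.3 in any tumour.

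Aif1, which encodes the actin-binding protein Iba1 of macrophages and microglia, had 39.7, 23.3 and 47.5 in the Notch1f/f tumours, against 1.1, 11.4 and 8.7 in the Notch1+/+ tumours. The groups did not overlap, although all 6 values were low. The Notch1+/+ mean of 7.07 lay under the filter level of 7.60, so Aif1 was tested only because of its Notch1f/f values. The log2 difference was 1.20 ± 0.26 (limma adjusted p = 0.202), and it was 2.52 with 1 in place of 16 added to the intensities and 0.50 with 64. Its probe set is of a type (_s_at) whose probes can be shared by more than 1 transcript.

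**Figure D2:**
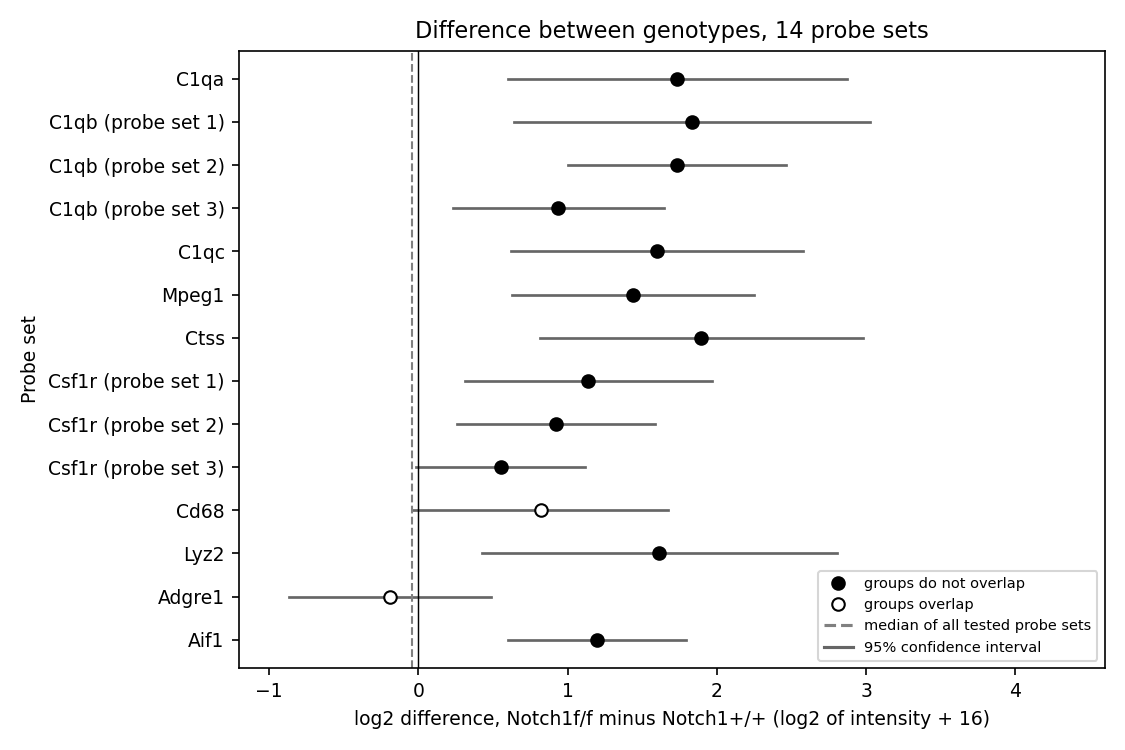
log2 difference (Notch1f/f minus Notch1+/+, of intensity + 16) of the 14 probe sets, with 95% confidence intervals from limma. Filled points mark the 12 probe sets whose groups do not overlap, and the dashed line marks the median of all tested probe sets, -0.04.

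The same tumours were highest and lowest in most of the genes. Notch1f/f tumour 3 was highest for 9 of the 10 genes, and Notch1+/+ tumour 1 was lowest for 9, with Adgre1 the exception in each case. The summed intensity of the 10 brightest probe sets was 1979, 2178 and 3805 in Notch1f/f tumours 1, 2 and 3, against 313.0, 1120 and 1172 in Notch1+/+ tumours 1, 2 and 3. The groups did not overlap, and Notch1+/+ tumour 1 stood well below the other 5. The RNA of Notch1+/+ tumour 1 also had the highest ratio of 3' to 5' beta-actin control signal, 2.23, against 1.35 to 1.64 in the Notch1f/f tumours and 1.36 and 1.38 in the other Notch1+/+ tumours. The same ratio of the Gapdh controls set it apart little. That ratio was 1.08, against 0.836 to 1.03 in the Notch1f/f tumours and 0.795 and 0.767 in the other Notch1+/+ tumours. Without Notch1+/+ tumour 1 the median log2 difference of the 14 probe sets was 1.03, and 12 had groups without overlap, against 15.6% of all probe sets. Leaving out a tumour cannot make separate groups overlap, so that count could not fall and is no check on the separation. The differences of C1qa, C1qb, Ctss and Csf1r were then 1.10, 1.16, 1.25 and 0.69 on their brightest probe sets.

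The 6 other genes whose centred profile over the 6 tumours was nearest to the mean profile of the set, among 12033 genes compared, were Tyrobp, Ctsh, Frat1, Ms4a7, Ppp2r5c and Sat1. They differed from it by a root mean square of 0.15 to 0.25 on the log2 scale. Tyrobp, the signalling adaptor DAP12 of myeloid and NK receptors, was the nearest, with 62.1, 72.7 and 138.9 in the Notch1f/f tumours against 12.7, 43.8 and 41.0 in the Notch1+/+ tumours. Ms4a7, a membrane protein of macrophages, had 88.4, 108.8 and 150.9 against 18.2, 38.1 and 53.2. Not all were genes of myeloid cells. Ppp2r5c, a regulatory subunit of the phosphatase PP2A, had 1299, 1169 and 1900 against 443.8, 786.1 and 947.6. These genes were picked for their likeness, so their group differences are a description. Within the set, Mpeg1 lay nearest the mean profile, at 0.11, and Adgre1 farthest, at 0.81, and 32.8% of all genes compared were nearer than Adgre1.

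**Figure D3:**
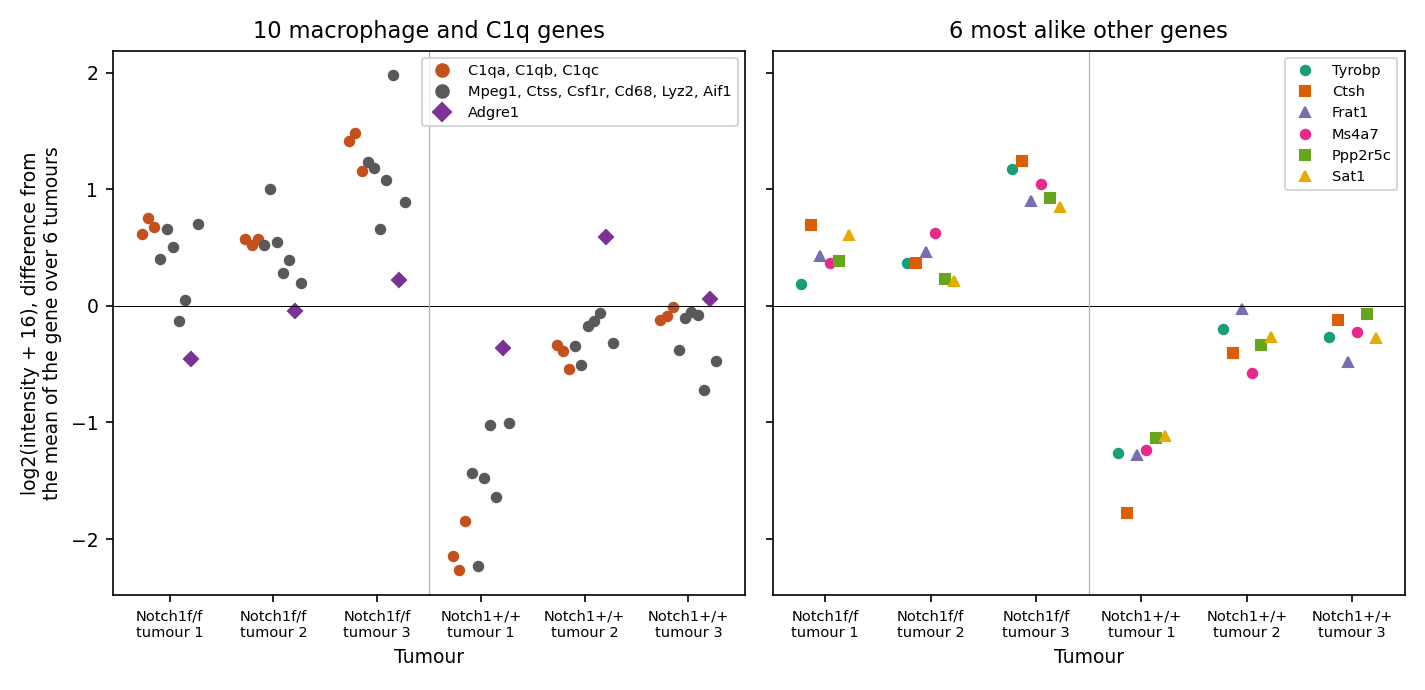
Level of each gene in each tumour as the difference from its own mean over the 6 tumours, on the scale of log2(intensity + 16), for the 10 genes (left panel) and the 6 most alike other genes (right panel), with Notch1f/f tumours on the left of each panel. Notch1+/+ tumour 1 lies lowest and Notch1f/f tumour 3 highest for most genes, and Adgre1 (diamonds) departs from the others.

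Other macrophage and monocyte genes were mixed. Of 24 on the array, 20 were bright enough to be tested. In 7 of the 20 the groups did not overlap on the higher side (8.13% of all tested probe sets) and in 1 on the lower side (10.4%). The median log2 difference was 0.49 (0.26 without Notch1+/+ tumour 1), and none passed limma. An unadjusted p under 0.05 was found for 7 on the higher side (5.94% of all) and 3 on the lower side. The share of all tested probe sets was 13.5% in both directions together. Lgals3, which encodes galectin-3, had 160.8, 334.6 and 391.1 in the Notch1f/f tumours, against 34.8, 117.2 and 151.5 in the Notch1+/+ tumours (log2 difference 1.49 ± 0.47, limma adjusted p = 0.291). Ms4a7, given above, had a log2 difference of 1.36 ± 0.32 (limma adjusted p = 0.212). Spi1 itself, the gene of PU.1, was dim, at 19.8, 33.1 and 35.9 against 6.7, 16.4 and 13.4, and was named after its values were seen.

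Marco, a scavenger receptor of macrophage subsets, ran the other way. It was listed at 0.5, 0.5 and 0.6 in the Notch1f/f tumours, against 13.4, 18.2 and 33.8 in the Notch1+/+ tumours, so the groups did not overlap. The log2 difference was -1.16 ± 0.21 (limma adjusted p = 0.149). All 3 Notch1f/f values lay under the filter level of 7.60, so Marco was tested only because of its Notch1+/+ values. Those Notch1f/f values had an SD of 0.005 on the log2 scale, and the small SE draws on them. The other 2 genes with an unadjusted p under 0.05 on the lower side were Cd5l and Vsig4, a secreted protein and a complement receptor of tissue macrophages, and they were named after their values were seen. Cd5l had 16.4, 41.0 and 42.0 against 39.7, 148.1 and 81.8, and Vsig4 was at most 17.6 in any tumour. The Notch1f/f mean of Vsig4, 4.83, was also under the filter level. Of the markers of resident macrophages, Siglec1, Cd163, Cx3cr1 and Trem2 lay below the filter on dim probe sets. On the higher side 7 genes of this list had an unadjusted p under 0.05. Among them were Mrc1, Fcgr3 and Fcer1g, also named after their values were seen. Their log2 differences were 1.06, 0.86 and 0.94 (limma adjusted p = 0.337, 0.316 and 0.297). The groups of Mrc1 overlapped, at 183.5, 96.3 and 104.0 against 22.2, 47.5 and 106.1.

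The other complement components gave little signal. Of 12 other complement component genes on the array, the C1 inhibitor included, 4 were bright enough to be tested. None of these 4 had groups without overlap (18.6% of all tested probe sets in both directions) or passed limma. An unadjusted p under 0.05 was found for 1, on the lower side (13.5% of all in both directions). The median log2 difference was -0.11 (-0.04 without Notch1f/f tumour 2). C1ra and C1s1, the proteases that assemble with C1q, lay below the filter. Serping1, the C1 inhibitor, had 6.3, 11.4 and 8.2 in the Notch1f/f tumours, against 10.9, 26.0 and 26.4 in the Notch1+/+ tumours (log2 difference -0.57 ± 0.23, limma adjusted p = 0.340). C2 and Masp1, serine proteases of the classical and lectin pathways, had log2 differences of 0.12 and -0.21, and that of C2 was -0.09 without Notch1+/+ tumour 3.

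The median log2 difference of 11 tested complement receptors and surface regulators was -0.13, which turned to 0.06 without Notch1+/+ tumour 2. Of the 11, 1 had groups without overlap on the higher side, near the share of all tested probe sets (8.13%). That gene was Cr1l, which encodes the rodent complement regulator Crry, with 344.5, 265.9 and 421.5 against 224.3, 226.1 and 259.1 (log2 difference 0.49 ± 0.23, limma adjusted p = 0.383). Itgax, a chain of complement receptor CR4, had a log2 difference of 0.94 and C1qbp, a mitochondrial protein that also binds C1q, one of -0.32, each with overlapping groups. None of the 11 passed limma, and 1 had an unadjusted p under 0.05, against 13.5% of all tested probe sets.

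The ligands of Csf1r were not bright. Csf1 had 22.0, 4.6 and 12.4 in the Notch1f/f tumours, against 15.2, 11.9 and 17.9 in the Notch1+/+ tumours, with overlapping groups and a log2 difference of -0.14 ± 0.24 (limma adjusted p = 0.829). Il34 lay below the filter. Csf2rb, the shared beta chain of the GM-CSF, IL-3 and IL-5 receptors, had 59.9, 41.2 and 71.9 against 7.1, 26.0 and 39.1, without overlap (log2 difference 0.95 ± 0.34, limma adjusted p = 0.308). Csf2ra, the alpha chain of the GM-CSF receptor, had a log2 difference of -0.07. Of the 7 genes of this list, 3 were tested, and their median was -0.07. It was above 0 without Notch1f/f tumour 1 (0.145), Notch1f/f tumour 2 (0.088) or Notch1+/+ tumour 2 (0.110), and 0.44 with the filter at the 60th percentile.

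Lysosomal genes were closer to the set. Of 13 tested, 7 had groups without overlap on the higher side (8.13% of all tested probe sets) and none on the lower side (10.4%). The median log2 difference was 0.66. None passed limma, and 8 had an unadjusted p under 0.05, all on the higher side (5.94% of all). Ctsh, cathepsin H, had 123.1, 94.5 and 187.4 in the Notch1f/f tumours, against 9.1, 48.8 and 63.1 in the Notch1+/+ tumours (log2 difference 1.53 ± 0.44, limma adjusted p = 0.269). Lgmn, the asparaginyl endopeptidase legumain, had 167.5, 145.1 and 144.3 against 34.6, 55.0 and 82.2 (log2 difference 1.25 ± 0.29, limma adjusted p = 0.202). Ctsa, the protective protein cathepsin A, had a log2 difference of 0.78 ± 0.25. Ctsk, named here as the gene next to Ctss on chromosome 3 and after its values were seen, had overlapping groups and a log2 difference of -0.14 (-0.533 to 0.187 with each tumour left out).

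Genes of apoptotic cell uptake were mixed. Of 14 tested, 2 had groups without overlap on the higher side (8.13% of all tested probe sets) and 1 on the lower side (10.4%). These counts are near the shares of all probe sets. The median log2 difference was 0.16. Omitting Notch1f/f tumours 1, 2 and 3 in turn gave medians of 0.24, 0.27 and 0.07, and omitting Notch1+/+ tumours 1 and 2 gave 0.05 and 0.28. Abca1, a lipid exporter, had 264.7, 324.3 and 184.0 in the Notch1f/f tumours, against 30.3, 137.4 and 130.0 in the Notch1+/+ tumours (log2 difference 1.40 ± 0.45, limma adjusted p = 0.294). Mertk, a receptor tyrosine kinase for apoptotic cells, had 54.3, 35.6 and 38.5 against 16.1, 23.1 and 34.6 (log2 difference 0.55 ± 0.26, limma adjusted p = 0.389). Scarb1, a scavenger receptor for HDL, was the lower one, with a log2 difference of -0.53 ± 0.26 (limma adjusted p = 0.393). None passed limma, and 1 of the 14 had an unadjusted p under 0.05, against 13.5% of all tested probe sets.

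**Figure D4:**
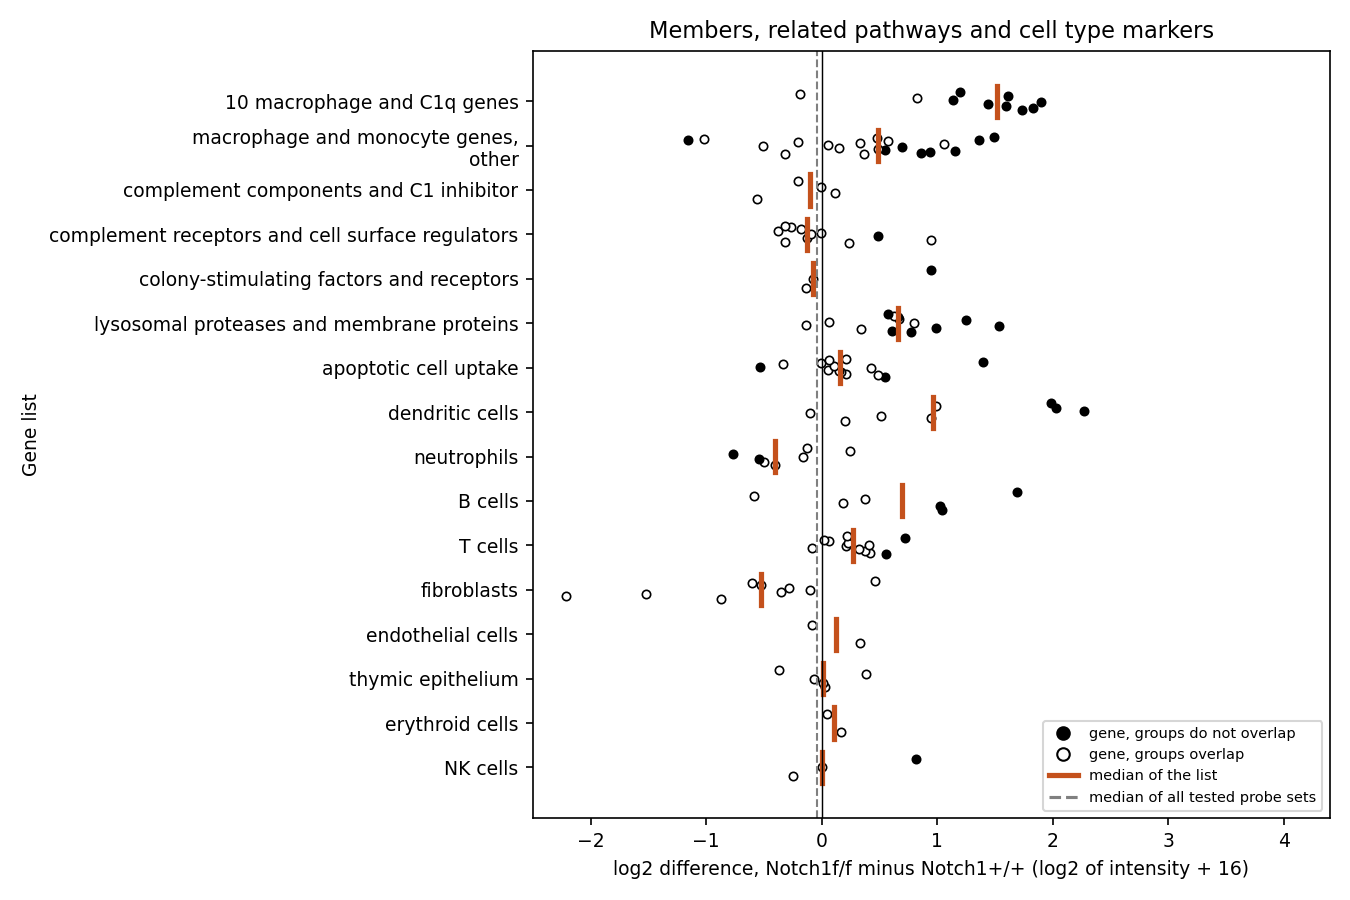
log2 difference (Notch1f/f minus Notch1+/+, of intensity + 16) of each tested gene, with 1 line of points for the 10 macrophage and C1q genes and for each related pathway or cell type marker list. Filled points have groups that do not overlap, orange bars are list medians, and the dashed line is the median of all tested probe sets, -0.04, against 1.52 for the brightest probe sets of the 10 genes.

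Markers of other cells, some of which share these genes, differed in direction, and their part in the values of the 10 genes was not tested. Of 8 tested dendritic cell markers, 3 had groups without overlap on the higher side (8.13% of all tested probe sets). The median log2 difference was 0.97. The summed intensity of the 12 on the array was 628.1 to 4591 in the Notch1f/f tumours and 292.7 to 732.5 in the Notch1+/+ tumours. The 3 were the MHC class II genes H2-Aa and H2-Eb1 and the invariant chain gene Cd74, which had 247.8, 156.8 and 1830 against 31.6, 151.3 and 77.2. Notch1f/f tumour 3 carried most of this signal, and without it the list median was 0.50 (0.61 without Notch1+/+ tumour 3). Of the other markers, Flt3, Xcr1, Siglech and Cd209a lay below the filter. Zbtb46, Batf3, Irf8 and Itgax were tested, with log2 differences of 0.21, 0.52, -0.10 and 0.94, each with overlapping groups (limma adjusted p = 0.644, 0.353, 0.906 and 0.320). The groups of H2-Ab1, also an MHC class II gene, overlapped too (log2 difference 0.99, limma adjusted p = 0.489). Batf3 and Zbtb46 had Notch1+/+ means of 6.17 and 7.5, under the filter level of 7.60, so they were tested only because of their Notch1f/f values.

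Of 7 tested neutrophil markers, none had groups without overlap on the higher side (8.13% of all tested probe sets). On the lower side 2 did (10.4% of all), and 5 had groups that overlapped. The median log2 difference was -0.41 (-0.25 without Notch1+/+ tumour 1). Ngp, apart on the lower side, had a log2 difference of -0.54, and S100a9, with overlapping groups, one of -0.50. Mpo, a neutrophil granule enzyme, was the only 1 of the 7 above 0, at 0.24. The summed intensity of the 11 on the array was 191.0 to 239.8 in the Notch1f/f tumours and 262.6 to 386.3 in the Notch1+/+ tumours, with Elane, Cxcr2, Lcn2 and Mmp8 below the filter. Camp, an antimicrobial peptide gene, had 9.3, 1.1 and 9.8 against 25.3, 24.3 and 17.4 (log2 difference -0.77 ± 0.22, limma adjusted p = 0.269). Its Notch1f/f mean of 6.73 was under the filter level of 7.60, so it was tested only because of its Notch1+/+ values.

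Of 6 tested B cell markers, 3 had groups without overlap on the higher side (8.13% of all tested probe sets). The median log2 difference of these markers was 0.70, or 0.23 without Notch1f/f tumour 3. Their summed intensity was 1283 to 3484 in the Notch1f/f tumours and 487.2 to 1073 in the Notch1+/+ tumours, most of it from Ighm, while Pax5 and Ebf1 lay below the filter. T cell markers had a median of 0.27 (0.16 without Notch1+/+ tumour 3 and 0.45 without Notch1+/+ tumour 2). Of the 12, 2 were apart on the higher side, against 8.13% of all tested probe sets. Fibroblast markers had a median of -0.53 over 9 tested (-0.26 without Notch1+/+ tumour 2 and -0.82 without Notch1+/+ tumour 1). None were apart (18.6% of all tested probe sets in both directions), and the summed intensity was 913.2 to 2009 against 1475 to 2709. Pdgfrb, named after its values were seen, gave the largest part of this sum in every tumour. It had 813.0, 1029.4 and 1827.1 against 1976.2, 1282.4 and 1103.4. Markers of endothelium, thymic epithelium, erythroid cells and NK cells had medians of 0.12, 0.01, 0.11 and 0.00 over 2, 5, 2 and 3 tested genes. With each tumour left out these ran from -0.318 to 0.533, -0.083 to 0.05, -0.139 to 0.255 and -0.166 to 0.39, so none of the 4 had a settled direction. None of the marker genes passed limma.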

How the data were processed

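Biotin-labelled RNA of 6 thymic lymphomas, 3 Notch1f/f and 3 Notch1+/+, was hybridised to Affymetrix arrays, per the labels' protocols. The authors deposited linear intensities, 1 per probe set, which the submitters' processing notes credit to MAS5 (version not given in the sources used here). The array mean, with 2% of values trimmed at each end, was 100 on average over the 6 arrays. It was not listed array by array, so scaling of each array was not checked. The labels give no batch or pairing, and no detection calls were used. Precision is limited by the number of arrays.

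Symbols came from the platform annotation, where 34945 probe sets had 1 symbol, 932 several and 9160 none. Of these symbols, 34741 matched the RefSeq table (GRCm38.p6). The scale of every test was log2(intensity + 16). Removing 64 controls and everything with a mean under the 40th percentile (4.56, an intensity of 7.60) kept 27022 probe sets. The fit was lmFit and eBayes (trend) in limma 3.58.1 under R 4.3.3, Notch1f/f minus Notch1+/+, two-sided, with Benjamini-Hochberg adjustment over all tested probe sets, and it was tested on simulated data. A gene with several probe sets is represented by the one with the highest mean. No set test was made. Protein sequences were not used here. The 10 genes, the lists and the tests were chosen with earlier results of these data known. Other genes were named by rule, as up to 3 of a discussed list with the smallest p and the 6 nearest in profile. Exceptions are stated in place, except for Mpo, Zbtb46, Batf3, Irf8, H2-Ab1 and genes given as below the filter, which were also named outside the rule. Alternatives changed the pseudocount (1 or 64), the filter (none, or at the 60th percentile), and used quantile normalisation, median centring, eBayes without trend, no moderation or array weights, or left out each array.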

Additional observations from a re-analysis of the deposited data

How the results depend on the processing

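No probe set of the 10 genes passed an adjusted p of 0.05 under any of the 15 alternative fits, where the lowest adjusted p in a fit ranged from 0.0754 (without Notch1f/f tumour 2) to 0.478 (without Notch1f/f tumour 1). The number of probe sets with groups apart on the higher side was 11 to 13 in every fit, against 6.61% to 15.9% of all probe sets (11.1% in the fit that gave 13). The 11 came with the 60th percentile filter, which kept 13 of the 14. Most of these fits could not lower that number. Leaving out a tumour cannot make separate groups overlap, and the pseudocount, moderation and weights leave the order of the tumours as it was. The median log2 difference was 0.94 with a pseudocount of 64, 1.69 with a pseudocount of 1, 1.08 with array weights and 1.03 to 1.50 with each tumour left out. Probe sets of the 10 genes with an unadjusted p under 0.05 numbered 7 with no moderation, against 11. The share of all probe sets was not computed for the fit with no moderation, so the 7 cannot be set against the 5.94% of the main fit. The count of all probe sets past the adjusted threshold, 5, became 3 with no filter, 15 with median centring, 3 with no moderation, 27 with array weights and 2 to 14 with each tumour left out (2 when Notch1f/f tumour 3, 3 when Notch1f/f tumour 1, 12 when Notch1f/f tumour 2 and 14 when Notch1+/+ tumour 3 was omitted). The count of list genes past that threshold stayed at 0.

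Of 61 probe sets followed through the alternatives, 6 changed sign in some fit, none of them past the threshold. The difference of Adgre1 was -0.419 to 0.055 with each tumour left out, above 0 when Notch1+/+ tumour 2 was omitted. That of C2 was -0.109 to 0.267, below 0 when Notch1f/f tumour 1 or Notch1+/+ tumour 3 (-0.088) was omitted. That of Csf1 was -0.353 to 0.088, above 0 when Notch1f/f tumour 2 was omitted. Csf2ra had 0.013 with quantile normalisation, 0.014 with median centring and -0.281 to 0.145 with each tumour left out, above 0 when Notch1f/f tumour 1 or Notch1+/+ tumour 2 (0.110) was omitted. That of Ctsk was -0.533 to 0.187, above 0 when Notch1f/f tumour 1, Notch1+/+ tumour 2 (0.108) or Notch1+/+ tumour 3 (0.017) was omitted. That of Irf8 was -0.307 to 0.112, above 0 when Notch1f/f tumour 2 or Notch1+/+ tumour 2 (0.1) was omitted. The medians of 6 of the 15 gene lists also changed sign, namely complement receptors, colony-stimulating factors, endothelium, thymic epithelium, erythroid cells and NK cells. The cause of these changes was not tested. No paired analysis was possible because the labels give the tumours no shared replicate numbers. No detection calls were used, so signal over background was not judged for dim probe sets such as those of Aif1, Adgre1 and Marco.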
